A study of Arabidopsis thaliana with 8 samples.

Results

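The WRKY transcription factor family was followed in rosette leaves of Arabidopsis thaliana after heat stress, in the Col-0 wild type and in the pif4-2 pif5-3 double mutant. The members are the 49 WRKY loci of a fixed list of locus identifiers, out of 34354 rows in the table, and all 49 were found there. A gene was counted as measured when it reached 1 FPKM (fragments per kilobase of transcript, relative to the mapped fragments of the library) in at least 2 of the 8 libraries, which held for 41 of the 49 WRKY genes and for 16831 genes in all. The plants were 3 weeks old and grew on soil at 22 °C. The first and second of 4 groups were Col-0 plants given a mock treatment, and Col-0 plants exposed to 42 °C for 5 h and sampled after 3 days of recovery. The other groups were pif4-2 pif5-3 plants under the same mock and heat treatments. Each group held 2 libraries of the 3rd and 4th rosette leaves, numbered in the labels as biological replicates. The recovery time was recorded for the heat groups, and whether mock leaves were of equal age at harvest is not given in the sources used here. The labels give no second allele, second mutant line or complemented line.

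WRKY proteins are plant transcription factors that share a DNA-binding domain with a zinc finger and recognise the W-box, a short DNA element that also occurs in front of many WRKY genes, so that members of the family regulate one another. They are sorted into groups I, IIa to IIe and III by the number of WRKY domains, the type of zinc finger and sequence likeness. In leaves they are known for their part in pathogen defence, salicylic acid and jasmonate signalling and the onset of senescence, and several also act in the response to heat. PIF4 and PIF5 are basic helix-loop-helix factors of light and temperature signalling that bind the G-box, and both promote leaf senescence.

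Stretches upstream of the annotated gene start are shown for 6 members, because they hold the W-boxes of genes with contrasting patterns in these leaves. WRKY45, WRKY75, WRKY26 and WRKY30 were at their highest in heated wild-type leaves, and WRKY53 and WRKY33 in heated mutant leaves. Capitals mark W-boxes on either strand (TTGACC or TTGACT, which read GGTCAA or AGTCAA on the other strand) and, in WRKY45, the G-box CACGTG. The sequences run 5′ to 3′ on the strand of the gene and come from the RefSeq genome, build TAIR10.1.
WRKY45 (chr3:327413-327612, minus strand, bases 200 to 1 before the start): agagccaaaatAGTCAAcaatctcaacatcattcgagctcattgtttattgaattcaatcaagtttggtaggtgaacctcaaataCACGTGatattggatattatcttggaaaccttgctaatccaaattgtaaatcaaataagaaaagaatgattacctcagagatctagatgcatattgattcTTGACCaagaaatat
WRKY75 (chr5:4151202-4151261, minus strand, bases 60 to 1 before the start): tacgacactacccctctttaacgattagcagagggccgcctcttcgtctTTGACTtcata
WRKY26 (chr5:2204106-2204205, plus strand, bases 100 to 1 before the start): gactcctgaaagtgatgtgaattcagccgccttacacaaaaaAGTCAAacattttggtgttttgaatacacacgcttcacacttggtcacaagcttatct
WRKY30 (chr5:8154741-8154840, minus strand, bases 130 to 31 before the start): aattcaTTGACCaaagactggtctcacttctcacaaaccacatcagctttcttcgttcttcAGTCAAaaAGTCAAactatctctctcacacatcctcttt
WRKY53 (chr4:12394043-12394212, minus strand, bases 230 to 61 before the start): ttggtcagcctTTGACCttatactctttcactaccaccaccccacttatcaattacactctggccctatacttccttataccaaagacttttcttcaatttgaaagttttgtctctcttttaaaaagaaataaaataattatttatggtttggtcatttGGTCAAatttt
WRKY33 (chr2:16108125-16108214, plus strand, bases 110 to 21 before the start): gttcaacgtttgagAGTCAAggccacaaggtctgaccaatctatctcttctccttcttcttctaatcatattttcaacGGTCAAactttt
WRKY45 held 2 W-boxes with the G-box between them, WRKY30 held 3 W-boxes, WRKY53 and WRKY33 held 2 each, and WRKY75 and WRKY26 held 1 each in the stretch shown. Within 250 bases upstream, 15 of the 41 measured members (36.6%) had a W-box, against 28.4% of 27443 annotated protein-coding genes. That background was not limited to measured genes. The G-box was present in 4 members, WRKY45, WRKY51, WRKY15 and WRKY2 (9.8%, against 6.5% of the same 27443 genes). The PBE-box CACATG, another element that PIF proteins bind, was present in 3 members (7.3%, against 11.1%), and the heat shock element GAANNTTC in 5 (12.2%, against 9.6%). No W-box lay in this window in front of WRKY6, WRKY8, WRKY18, WRKY40, WRKY60 or WRKY70, which says nothing about sites further away.

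Between 16852240 and 29535916 reads per library were recovered from the steps of the FPKM values, and 16016 to 16348 genes reached 1 FPKM. PIF4 was at 131 and 131 FPKM in wild-type mock, 97.2 and 101 in wild-type heat, 33.5 and 33.6 in mutant mock and 25.6 and 23.8 in mutant heat. PIF5 was at 63.2 and 66.4 FPKM in wild-type mock, 54.3 and 54.9 in wild-type heat, 5.60 and 4.70 in mutant mock and 4.74 and 3.98 in mutant heat. For both genes every mutant library was below every wild-type library. The 6 rosette leaf markers (RBCS, CAB, RCA and CA1 genes) summed to between 14452 and 20336 FPKM in every library, the root markers were at 0 in 7 libraries, and the shoot meristem markers reached 0.0704 FPKM at most. Rosette leaf markers were lowest in mutant mock (14452 and 15023 FPKM), and their part in the WRKY values was not tested. From mock to heat in the wild type, the means of CAB2 (2106 to 1772 FPKM) and LHCB2.1 (2892 to 1905) fell. Those of RBCS1A, RBCS3B, CA1 and RCA rose there, and in the mutant all 6 rose. Epidermis markers summed to 152 FPKM in both wild-type mock libraries, 108 and 112 in wild-type heat, 119 and 122 in mutant mock and 94.2 and 98.9 in mutant heat, and their part was likewise not tested. Vascular markers summed to 562 and 573 FPKM in wild-type mock, 653 and 657 in wild-type heat, 719 and 736 in mutant mock and 727 and 757 in mutant heat. These markers did not move together. From mock to heat in the wild type, the means of SUC2 (173 to 151 FPKM) and AHA3 (118 to 114) fell. Those of SWEET11 (195 to 251) and SWEET12 (80.9 to 140) rose, and the directions were the same in the mutant. The part of the vascular markers was not tested. Guard cell markers summed to 23.0 to 27.8 FPKM. In whole leaves, fewer cells of a type cannot be told apart from less RNA per cell. Changes below are log2 changes ± SE on the log2(FPKM + 1) scale from limma, which understates changes of genes at low FPKM, and adjusted p is the Benjamini-Hochberg value over 16831 genes, called below 0.05.

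Heat changed most of the measured WRKY genes of the list in the wild type and few of them in the mutant. In the wild type 30 of the 41 measured members rose and 1 fell, with a median log2 change of 0.48, against 21.5% higher, 16.9% lower and a median of 0.02 over all genes. In the mutant 8 rose and 1 fell, with a median of 0.08, against 6.28% higher, 13.9% lower and a median of -0.06 over all genes. WRKY30, WRKY31 and WRKY71 passed the filter on low values through wild-type heat alone, so they were bound to differ. Without them 27 of 38 members rose in the wild type, against 20.5% of the genes that reached 1 FPKM in 2 or more groups. Of the 30 that rose in the wild type, 6 also rose in the mutant (WRKY18, WRKY33, WRKY46, WRKY53, WRKY54 and WRKY60), and the other 24 were not called there. WRKY40 and WRKY70 rose in the mutant and were not called in the wild type. Without mutant heat replicate 1 the members called in the mutant numbered 5 in place of 9. The rise reached 2-fold on this scale for 13 members in the wild type (11 without these 3) and for 1, WRKY60, in the mutant. The difference between the heat changes, tested as the interaction, was negative (a lower change in the mutant) for 23 members and positive for 4, against 21.6% and 10.3% of all genes. The negative ones numbered 20 without the 3 genes just named, and 14 when wild-type heat replicate 1 was left out. Its median was -0.38 over the members and -0.10 over all genes. Scaling by median of ratios moved the latter to -0.01 and quantile scaling to 0.02, with 17 and 15 members then negative and 4 and 5 positive. With these scalings the mutant had 11 and 10 higher members and 0 lower. Of the 30 members that rose in the wild type in the fit first given, 8 had no interaction call there.

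**Figure D1:**
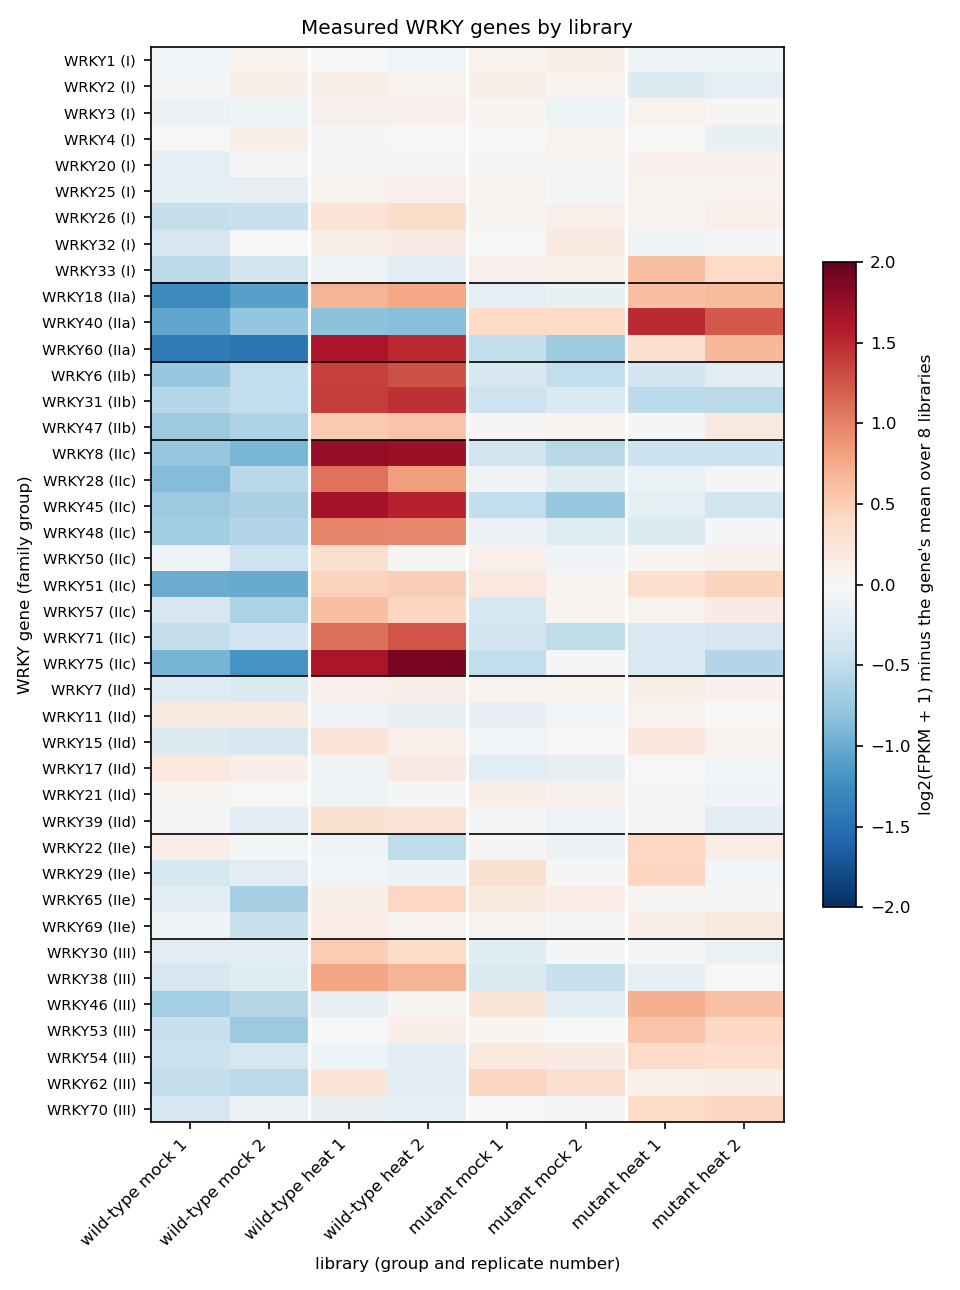
Each row is a measured WRKY gene with its group in parentheses, each column a library, and the colour gives the log2(FPKM + 1) value of the library minus the mean of that gene over the 8 libraries. Members of groups IIb and IIc are mostly highest in the wild-type heat columns, and WRKY40, WRKY70, WRKY46 and WRKY53 in the mutant heat columns.

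Summed over the 41 measured members, WRKY transcripts stood at 482 and 509 FPKM in wild-type mock, 715 and 700.0 in wild-type heat, 622 and 613 in mutant mock and 762 and 738 in mutant heat. The heated mutant had the highest sums, above both heated wild-type libraries. WRKY70 made up the largest share of the sum, followed by WRKY33, WRKY54, WRKY15 and WRKY11, with means over the 8 libraries of 119.5, 45.3, 43.6, 41.7 and 37.1 FPKM. By contrast, the median over the members was 11.5 and 12.2 FPKM in wild-type heat and 7.70 and 7.78 in mutant heat.

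Group IIc, whose members carry a single WRKY domain, was called higher in the wild type after heat in 9 of 9 measured members (median 1.62), or 8 of 8 without WRKY71, and in 0 in the mutant (median 0.08). The shares of all genes called higher (21.5% for the wild type, 6.28% for the mutant) stand behind the counts of each WRKY group, and for a group of a few members 0 in the mutant is near that share. In the mutant WRKY45 was called after median-of-ratios scaling (0.39, adjusted p = 0.042), after quantile scaling (0.40, adjusted p = 0.044) and when mutant mock replicate 1 was left out (0.47, adjusted p = 0.046), and WRKY51 after quantile scaling (0.34, adjusted p = 0.046). WRKY45 (AT3G01970), an activator of the phosphate transporter gene PHT1;1 and of age-dependent senescence, was at 2.32 and 2.50 FPKM in wild-type mock, 16.5 and 15.1 in wild-type heat, 2.91 and 2.25 in mutant mock and 3.84 and 3.19 in mutant heat. Both wild-type heat libraries stood far above the other 6, and the mutant groups did not overlap each other. The heat change was 2.30 ± 0.12, adjusted p = 2.8e-08 in the wild type and 0.34 ± 0.12, adjusted p = 0.072 in the mutant, and these changes differed by -1.96 ± 0.17 (adjusted p = 6.2e-06). WRKY75 (AT5G13080), a regulator of phosphate starvation that also promotes senescence, was at 0.493 and 0.247 FPKM in wild-type mock, 7.81 and 9.53 in wild-type heat, 1.003 and 1.75 in mutant mock and 1.30 and 0.879 in mutant heat. Both heated wild-type leaves were high, and the mutant mock libraries lay slightly above wild-type mock, with overlap between mutant mock and mutant heat. WRKY75 rose by 2.82 ± 0.18 in the wild type (adjusted p = 1.2e-07), or by 4.51 with limma-voom on recovered reads, and was at -0.17 ± 0.18 in the mutant (adjusted p = 0.52).

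WRKY8 (AT5G46350), which acts in defence against fungi and viruses and in salt stress, had the smallest p of all members for the interaction. Its values were 1.60 and 1.34 FPKM in wild-type mock, 13.8 and 13.3 in wild-type heat, 2.34 and 1.99 in mutant mock and 2.26 and 2.24 in mutant heat. The wild-type heat libraries were several times above all others, and mutant mock and mutant heat overlapped. The change was 2.56 ± 0.11, adjusted p = 4.6e-09 in the wild type, 0.04 ± 0.11, adjusted p = 0.82 in the mutant, and the interaction -2.52 ± 0.16, adjusted p = 3.5e-07. WRKY28 (AT4G18170), an activator of the salicylic acid synthesis gene ICS1, was at 0.907 and 1.35 FPKM in wild-type mock, 6.32 and 5.16 in wild-type heat, 2.28 and 1.92 in mutant mock and 2.17 and 2.37 in mutant heat. WRKY48 (AT5G49520), a repressor of basal defence, was at 1.02 and 1.17 FPKM in wild-type mock, 5.46 and 5.38 in wild-type heat, 2.03 and 1.74 in mutant mock and 1.69 and 2.22 in mutant heat. Both followed the order of WRKY8, with the heated wild-type leaves apart from the rest and the 4 mutant libraries together. Their heat changes in the wild type were 1.66 ± 0.14 for WRKY28 and 1.62 ± 0.13 for WRKY48, with interactions of -1.59 ± 0.20 (adjusted p = 1.1e-04) and -1.58 ± 0.18 (adjusted p = 5.3e-05).

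**Figure D2:**
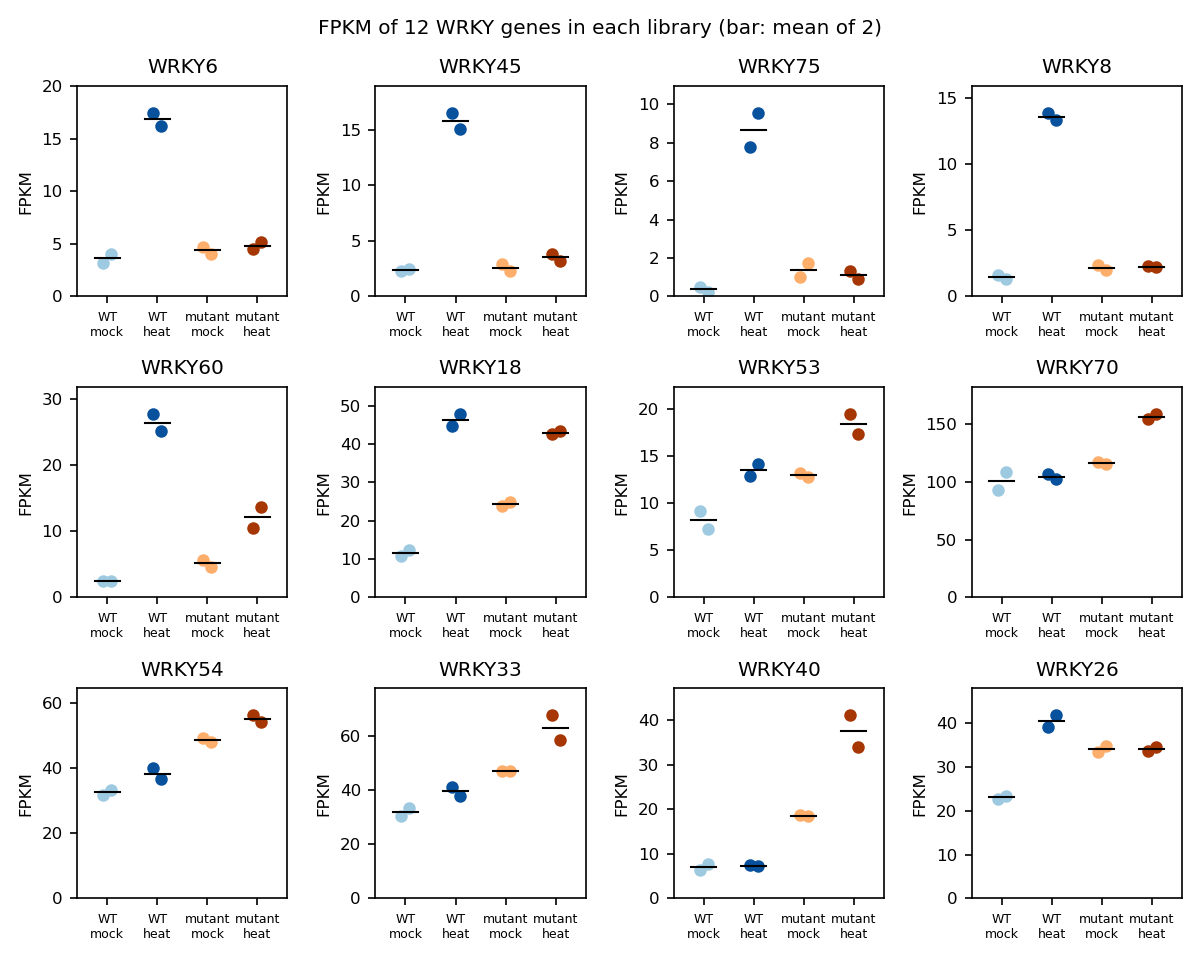
FPKM of 12 WRKY genes in each library (points, 2 per group) with the group mean (line), on linear axes that start at 0. WRKY45, WRKY75, WRKY8 and WRKY6 are high in both wild-type heat libraries, and WRKY40 is highest in mutant heat.

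WRKY51 (AT5G64810), which with WRKY50 mediates the repression of jasmonate signalling by salicylic acid, was at 1.60 and 1.56 FPKM in wild-type mock, 6.13 and 6.29 in wild-type heat, 4.97 and 4.44 in mutant mock and 5.51 and 6.08 in mutant heat. Wild-type mock was low, and the other 3 groups were near one another. WRKY51 rose in the wild type (1.48 ± 0.10, adjusted p = 3.4e-07) and was 0.25 ± 0.10 in the mutant (adjusted p = 0.11), whose mock level was already higher by 1.14 ± 0.10. WRKY57 (AT1G69310), a repressor of jasmonate-induced senescence, was at 3.26 and 2.48 FPKM in wild-type mock, 7.13 and 6.21 in wild-type heat, 3.19 and 4.59 in mutant mock and 4.66 and 5.03 in mutant heat. The wild-type heat libraries lay above the others, and mutant mock overlapped wild-type mock. WRKY57 rose by 0.99 ± 0.15 in the wild type (adjusted p = 2.0e-04) and was 0.27 ± 0.15 in the mutant (adjusted p = 0.22). Its interaction of -0.72 ± 0.21 (adjusted p = 0.020) was lost when mutant mock replicate 2 was left out (-0.51, adjusted p = 0.088) and with 3 other libraries left out in turn. WRKY50 (AT5G26170) ran from 2.66 to 5.11 FPKM over the libraries and rose by 0.44 ± 0.14 in the wild type, a call lost when wild-type heat replicate 1 was left out (0.29, adjusted p = 0.20) or likewise wild-type mock replicate 2 (0.28, adjusted p = 0.19).

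WRKY71 (AT1G29860), known for shoot branching and flowering, was far higher in 1 group than in the others, at 0.107 and 0.179 FPKM in wild-type mock, 2.30 and 2.69 in wild-type heat, 0.181 and 0.0815 in mutant mock and 0.245 and 0.212 in mutant heat. These values rest on 2 to 55 reads per library, and the gene passed the filter on low values through wild-type heat alone, as did WRKY31 and WRKY30. The change of WRKY71 was 1.61 ± 0.14 in the wild type (adjusted p = 2.1e-06), or 3.99 with limma-voom, and 0.12 ± 0.14 in the mutant (adjusted p = 0.58). Without either wild-type heat library these 3 genes failed the filter and were not tested. WRKY23, an auxin-responsive member of the group, was not measured (0.671 to 1.005 FPKM).

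In group IIb, WRKY6 and WRKY47 rose in the wild type after heat and were not called in the mutant. The third measured member, WRKY31, passed the filter only through wild-type heat and carries no weight in such a count. WRKY6 (AT1G62300), a senescence- and defence-associated factor that represses PHO1 and activates the receptor kinase gene FRK1, was at 3.22 and 4.06 FPKM in wild-type mock, 17.4 and 16.3 in wild-type heat, 4.73 and 4.08 in mutant mock and 4.52 and 5.14 in mutant heat. The heated wild type stood apart, and the 6 other libraries lay between 3.22 and 5.14 FPKM. Its change was 1.95 ± 0.11, adjusted p = 6.8e-08 in the wild type, 0.11 ± 0.11, adjusted p = 0.53 in the mutant, and the interaction -1.84 ± 0.16, adjusted p = 6.5e-06. WRKY47 (AT4G01720) was at 4.36 and 4.80 FPKM in wild-type mock, 11.8 and 12.2 in wild-type heat, 8.02 and 8.20 in mutant mock and 7.70 and 9.01 in mutant heat. Wild-type mock was lowest, wild-type heat highest, and all 4 mutant libraries were in between. The rise of WRKY47 was 1.22 ± 0.09 in the wild type (adjusted p = 8.0e-07) against 0.03 ± 0.09 in the mutant (interaction -1.19 ± 0.13, adjusted p = 4.8e-05). WRKY31 (AT4G22070) was at 0.0993 and 0.159 FPKM in wild-type mock, 3.26 and 3.47 in wild-type heat, 0.219 and 0.318 in mutant mock and 0.137 and 0.118 in mutant heat, on 4 to 140 reads per library. It was close to 0 everywhere but in heated wild-type leaves. The change of WRKY31 in the wild type was 1.95 ± 0.13 (adjusted p = 2.7e-07), or 4.63 with limma-voom on recovered reads, and the interaction -2.12 ± 0.19. WRKY42, which represses PHO1 together with WRKY6, was not measured (0.290 to 0.761 FPKM).

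The 3 genes of group IIa encode leucine zipper proteins that pair with one another and act as repressors in defence and abscisic acid signalling, and they responded in different ways. WRKY18 (AT4G31800) was at 10.8 and 12.4 FPKM in wild-type mock, 44.9 and 47.8 in wild-type heat, 23.9 and 24.9 in mutant mock and 42.5 and 43.5 in mutant heat. Heated leaves of both genotypes reached nearly the same level, from a mutant mock level above that of the wild type. WRKY18 rose by 1.91 ± 0.07 in the wild type (adjusted p = 9.7e-10) and by 0.79 ± 0.07 in the mutant (adjusted p = 4.2e-05), a difference of -1.12 ± 0.10 (adjusted p = 6.3e-06). WRKY60 (AT2G25000) was at 2.48 and 2.42 FPKM in wild-type mock, 27.7 and 25.1 in wild-type heat, 5.59 and 4.66 in mutant mock and 10.5 and 13.7 in mutant heat. The 4 groups did not overlap, and their order was wild-type mock, mutant mock, mutant heat and wild-type heat. Its rises were 2.99 ± 0.12 (adjusted p = 2.0e-09) in the wild type, the highest of the members on this scale, and 1.09 ± 0.12 (adjusted p = 1.7e-04) in the mutant.

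WRKY40 (AT1G80840) was at 6.30 and 7.70 FPKM in wild-type mock, 7.42 and 7.28 in wild-type heat, 18.7 and 18.4 in mutant mock and 41.1 and 34.0 in mutant heat. Both wild-type groups were at the same low level, mutant mock was higher and mutant heat highest, with no overlap between genotypes. WRKY40 did not pass the test in the wild type (0.07 ± 0.10, adjusted p = 0.64) and rose in the mutant (0.98 ± 0.10, adjusted p = 1.0e-04), and the interaction was 0.91 ± 0.14 (adjusted p = 5.3e-04). After heat the mutant exceeded the wild type by 2.20 ± 0.10 (adjusted p = 1.1e-08), which is 5.11-fold in mean FPKM. WRKY40 overlaps AT1G80850 on the opposite strand, whose mean was 3.33 to 3.99 FPKM across the groups. The sources used here do not say whether the counting used strand.

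**Figure D3:**
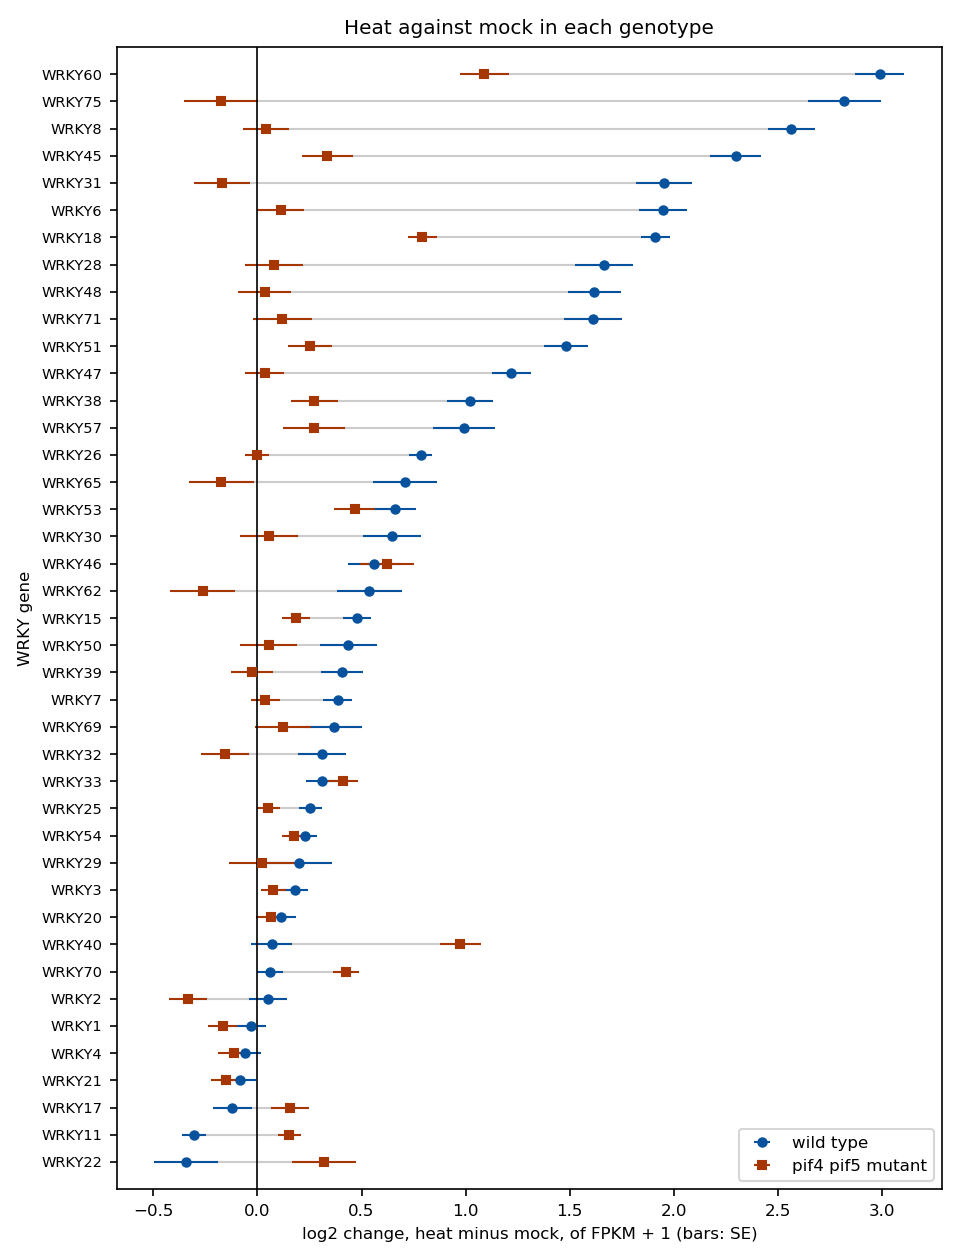
Log2 change after heat ± SE from limma on the log2(FPKM + 1) scale for each measured WRKY gene, by genotype. Most points of the wild type lie to the right of those of the mutant, and WRKY40, WRKY70, WRKY22 and WRKY11 are among those in the opposite order.

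Group III holds regulators of both senescence and salicylic acid defence, and after heat 6 of its 7 measured members rose in the wild type (5 of 6 without WRKY30), against 4 in the mutant. WRKY53 (AT4G23810), a positive regulator of leaf senescence, was at 9.18 and 7.32 FPKM in wild-type mock, 12.9 and 14.2 in wild-type heat, 13.2 and 12.8 in mutant mock and 19.5 and 17.4 in mutant heat. Both mutant heat libraries lay highest, both wild-type mock libraries lowest, and wild-type heat overlapped mutant mock. WRKY53 rose by 0.66 ± 0.10 in the wild type (adjusted p = 2.2e-04) and by 0.47 ± 0.10 in the mutant (adjusted p = 0.0076), where the call was lost when mutant heat replicate 1 was left out (0.39, adjusted p = 0.067) or likewise mutant mock replicate 2 (0.45, adjusted p = 0.052). The interaction did not pass (-0.19 ± 0.14, adjusted p = 0.33). WRKY53 overlaps AT4G23800 on the opposite strand, with group means of 0.940 to 2.05 FPKM. WRKY46 (AT2G46400), which acts with WRKY53 and WRKY70 in basal defence, was at 7.67 and 8.33 FPKM in wild-type mock, 11.5 and 13.1 in wild-type heat, 15.6 and 11.0 in mutant mock and 21.7 and 19.8 in mutant heat. Wild-type mock was lowest and mutant heat highest, with wild-type heat and mutant mock overlapping. WRKY46 rose by 0.56 ± 0.13 (adjusted p = 0.0041) in the wild type and 0.62 ± 0.13 (adjusted p = 0.0063) in the mutant. The latter call was lost when mutant heat replicate 1 was left out (0.56, adjusted p = 0.051), and leaving out mutant mock replicate 2 gave 0.39, adjusted p = 0.047.

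WRKY70 (AT3G56400), a negative regulator of senescence and a node between salicylic acid and jasmonate signalling, was the most abundant member, at 92.7 and 108 FPKM in wild-type mock, 106 and 103 in wild-type heat, 117 and 116 in mutant mock and 155 and 158 in mutant heat. Both heated mutant libraries exceeded all others, and the 2 wild-type groups overlapped. WRKY70 was not called in the wild type (0.06 ± 0.06, adjusted p = 0.48) and rose in the mutant (0.42 ± 0.06, adjusted p = 9.6e-04). With wild-type mock replicate 2 left out it was called in the wild type as well (0.17, adjusted p = 0.020). Its interaction of 0.36 ± 0.09 (adjusted p = 0.0080) was at adjusted p = 0.054 without an intensity trend. WRKY54 (AT2G40750), a close relative that acts with WRKY70 in holding back senescence, was at 31.6 and 33.4 FPKM in wild-type mock, 40.0 and 36.5 in wild-type heat, 49.2 and 48.0 in mutant mock and 56.1 and 54.0 in mutant heat. The 4 groups did not overlap, and both mutant groups lay above both wild-type groups. WRKY54 rose by 0.23 ± 0.06 in the wild type (adjusted p = 0.0076), a call lost when wild-type heat replicate 1 was left out (0.17, adjusted p = 0.091) or likewise wild-type mock replicate 1 (0.19, adjusted p = 0.060). In the mutant it rose by 0.18 ± 0.06 (adjusted p = 0.048), a call lost when mutant heat replicate 1 was left out (0.15, adjusted p = 0.20) and with 3 other libraries left out in turn.

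WRKY38 (AT5G22570) and WRKY62 (AT5G01900), negative regulators of basal defence that act together, differed in their baseline. WRKY38 was at 3.12 and 3.40 FPKM in wild-type mock, 7.997 and 7.30 in wild-type heat, 3.27 and 2.83 in mutant mock and 3.61 and 4.18 in mutant heat. The heated wild type was apart from the other 6 libraries. WRKY38 rose by 1.02 ± 0.11 in the wild type (adjusted p = 1.6e-05) and was 0.27 ± 0.11 in the mutant (adjusted p = 0.11). WRKY62 was at 0.736 and 0.664 FPKM in wild-type mock, 1.90 and 1.10 in wild-type heat, 2.28 and 2.02 in mutant mock and 1.60 and 1.64 in mutant heat. Wild-type mock was lowest, and the 2 wild-type heat libraries were on either side of mutant heat. Its rise of 0.54 ± 0.16 in the wild type was lost when wild-type heat replicate 1 was left out (0.30, adjusted p = 0.19) and with 2 other libraries left out in turn, and its interaction of -0.80 ± 0.22 (adjusted p = 0.016) was lost when wild-type heat replicate 1 was left out (-0.57, adjusted p = 0.072) or likewise mutant mock replicate 1 (-0.74, adjusted p = 0.051). WRKY30 (AT5G24110), which is induced by oxidative stress, stayed under 1 FPKM in 6 libraries and reached 1.56 and 1.32 in wild-type heat (0.65 ± 0.14, adjusted p = 0.0027). WRKY41 (0.0777 to 0.273 FPKM) and the senescence regulator WRKY55 (0.202 to 1.80 FPKM, at least 1 in 1 wild-type heat library) were not measured.

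Group I, whose proteins carry a pair of WRKY domains, includes the thermotolerance factors WRKY25, WRKY26 and WRKY33, and 5 of its 9 measured members rose in the wild type. WRKY33 (AT2G38470), a substrate of MPK3 and MPK6 that controls camalexin synthesis, was at 30.2 and 33.3 FPKM in wild-type mock, 41.2 and 37.8 in wild-type heat, 46.9 and 47.1 in mutant mock and 67.4 and 58.4 in mutant heat. The order of the groups was the one seen for WRKY54, and they did not overlap. WRKY33 rose by 0.31 ± 0.07 in the wild type (adjusted p = 0.0054), a call lost when wild-type heat replicate 1 was left out (0.25, adjusted p = 0.058) or likewise wild-type mock replicate 1 (0.24, adjusted p = 0.051). In the mutant it rose by 0.41 ± 0.07 (adjusted p = 0.0029), and the interaction was 0.10 ± 0.10 (adjusted p = 0.49). WRKY33 overlaps AT2G38480 on the opposite strand, at group means of 4.21 to 6.60 FPKM.

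WRKY26 (AT5G07100) was at 22.8 and 23.3 FPKM in wild-type mock, 39.1 and 41.8 in wild-type heat, 33.5 and 34.8 in mutant mock and 33.6 and 34.6 in mutant heat. Wild-type mock was low, wild-type heat highest, and mutant mock and mutant heat were the same within their spread. WRKY26 rose by 0.78 ± 0.06 in the wild type (adjusted p = 3.8e-07) and was at -0.0014 ± 0.06 in the mutant (adjusted p = 0.99), with an interaction of -0.79 ± 0.08 (adjusted p = 1.9e-05). WRKY25 (AT2G30250) was at 29.0 and 29.4 FPKM in wild-type mock, 34.8 and 35.3 in wild-type heat, 34.8 and 32.1 in mutant mock and 34.7 and 34.6 in mutant heat. The wild-type mock libraries were lowest, and the other 3 groups were close to one another. WRKY25 rose by 0.25 ± 0.06 in the wild type (adjusted p = 0.0031), and neither the mutant (0.05 ± 0.06, adjusted p = 0.55) nor the interaction (-0.20 ± 0.08, adjusted p = 0.068) passed. The interaction was called with mutant mock replicate 2 left out (-0.26, adjusted p = 0.045).

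The other members of group I varied little. WRKY3 (AT2G03340), known with WRKY4 for defence against fungi that kill their host, ran from 25.1 to 28.9 FPKM and rose by 0.18 ± 0.06 in the wild type, a call lost when wild-type mock replicate 1 was left out (0.17, adjusted p = 0.13) and with 3 other libraries left out in turn. WRKY32 (AT4G30935) ran from 5.38 to 8.08 FPKM and rose by 0.31 ± 0.11 in the wild type (adjusted p = 0.049), lost when wild-type mock replicate 1 was left out (0.15, adjusted p = 0.39) and with 6 other libraries left out in turn. WRKY2 (AT5G56270), known for seed germination and zygote polarity, was the 1 member that fell in the mutant (-0.33 ± 0.09, adjusted p = 0.026). That call was lost when mutant heat replicate 1 was left out (-0.29, adjusted p = 0.13) and with 3 other libraries left out in turn, after median-of-ratios scaling (-0.26, adjusted p = 0.066) and after quantile scaling (-0.25, adjusted p = 0.080). WRKY2 also overlaps AT5G56280 on the other strand, at group means of 18.97 to 20.7 FPKM. WRKY4, WRKY20 and WRKY1 (ZAP1 in the annotation) were called in no comparison, with ranges of 14.0 to 17.1, 12.7 to 15.6 and 15.8 to 18.3 FPKM. WRKY44 (TTG2 in the annotation), a regulator of trichomes, was not measured (0.0777 to 0.797 FPKM).

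In group IId, whose proteins bind calmodulin, 3 of 6 measured members rose and 1 fell in the wild type, and 0 were called in the mutant. After median-of-ratios scaling WRKY11 (0.23, adjusted p = 0.016) and WRKY15 (0.26, adjusted p = 0.020) were called higher in the mutant. WRKY11 (AT4G31550), a negative regulator of basal resistance, was the 1 WRKY gene called lower after heat in the wild type as tested here, with WRKY22 joining it under 3 alternatives given with that gene. It was at 41.9 and 42.6 FPKM in wild-type mock, 34.9 and 33.2 in wild-type heat, 32.9 and 35.4 in mutant mock and 38.8 and 37.3 in mutant heat. Wild-type mock was highest, and wild-type heat and mutant mock overlapped at the lowest levels. WRKY11 fell by 0.31 ± 0.06 in the wild type (adjusted p = 0.0010) and was 0.15 ± 0.06 in the mutant (adjusted p = 0.076), and the interaction was 0.46 ± 0.08 (adjusted p = 0.0011). Its partner WRKY17 (AT2G24570) ran from 9.10 to 12.7 FPKM and was -0.12 ± 0.09 in the wild type (adjusted p = 0.34).

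WRKY15 (AT2G23320), which acts in oxidative and osmotic stress, ran from 32.9 to 49.8 FPKM and rose by 0.48 ± 0.07 in the wild type (adjusted p = 1.4e-04). Its interaction of -0.29 ± 0.10 (adjusted p = 0.035) was lost when wild-type heat replicate 1 was left out (-0.21, adjusted p = 0.15) and with 4 other libraries left out in turn. WRKY7 (AT4G24240), a calmodulin-binding repressor of defence, ran from 9.90 to 13.5 FPKM and rose by 0.38 ± 0.07 in the wild type (adjusted p = 8.8e-04). WRKY39 (AT3G04670), known for a part in heat tolerance, ran from 7.69 to 11.5 FPKM and rose by 0.41 ± 0.10 in the wild type (adjusted p = 0.0067), a call lost when wild-type mock replicate 2 was left out (0.31, adjusted p = 0.058). These 3 genes were 0.18, 0.04 and -0.03 in the mutant and did not pass there, although WRKY15 did with the replicate block as well (adjusted p = 0.047). WRKY21 was called in no comparison (10.8 to 12.8 FPKM), and WRKY74 was not measured (at most 0.127 FPKM).

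In group IIe, 2 of 4 measured members rose in the wild type and 0 were called in the mutant, where 6.28% of all genes rose. WRKY22 (AT4G01250), a factor of flagellin signalling that also promotes senescence in the dark, was at 4.34 and 3.74 FPKM in wild-type mock, 3.64 and 2.40 in wild-type heat, 3.93 and 3.48 in mutant mock and 5.45 and 4.34 in mutant heat. The libraries of all 4 groups were close, with the highest in mutant heat and the lowest in wild-type heat. WRKY22 did not pass in the wild type (-0.34 ± 0.15, adjusted p = 0.10) or in the mutant (0.32 ± 0.15, adjusted p = 0.16). In the wild type it was called lower when wild-type heat replicate 1 was left out (-0.57, adjusted p = 0.018), after quantile scaling (-0.43, adjusted p = 0.048) and with the replicate block (adjusted p = 0.034). The interaction of 0.66 ± 0.22 (adjusted p = 0.036) was lost when wild-type heat replicate 2 was left out (0.44, adjusted p = 0.13) and with 3 other libraries left out in turn. WRKY29 (AT4G23550), which acts with WRKY22, ran from 2.15 to 4.44 FPKM and passed in no comparison. Its difference between the genotypes in mock (0.45 ± 0.16, adjusted p = 0.066) was called with the replicate block (adjusted p = 0.049), with at least 1 FPKM required in all libraries (adjusted p = 0.048), with limma-voom (0.63, adjusted p = 0.031) and with either mutant heat library left out. After heat it was called with mutant heat replicate 2 left out (0.51, adjusted p = 0.041). WRKY29, WRKY1 and WRKY4 also overlap an annotated gene on the opposite strand, and WRKY69 overlaps AT3G09145 and AT3G58720, the latter at group means of 6.25 to 10.7 FPKM. WRKY65 (AT1G29280) ran from 1.29 to 3.83 FPKM and rose by 0.71 ± 0.15 in the wild type (adjusted p = 0.0032), with -0.17 ± 0.15 in the mutant. WRKY69 (AT3G58710) ran from 1.73 to 3.23 FPKM, and its rise of 0.37 ± 0.13 (adjusted p = 0.049) was lost when wild-type mock replicate 2 was left out (0.18, adjusted p = 0.37) and with 6 other libraries left out in turn. WRKY35 and WRKY14 were not measured, at no more than 0.0873 and 0.0564 FPKM.

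Under mock conditions most WRKY differences between the genotypes were higher levels in the mutant. The mutant was higher for 20 of the 41 members and lower for 2, at a median difference of 0.27, against 13.0% higher, 7.69% lower and a median of 0.06 over all genes. Fitted on the mock groups alone, 17 members were higher and 2 lower, and 2608 of all genes were called in place of 3479. The members with the highest differences were WRKY40 (1.29 ± 0.10, adjusted p = 3.0e-06), WRKY51 (1.14 ± 0.10, adjusted p = 1.2e-05) and WRKY18 (1.02 ± 0.07, adjusted p = 1.1e-06). The 3 members of group IIa were all higher, as were 5 of 7 in group III and 5 of 9 in group IIc. In group III, WRKY62 was higher by 0.89 ± 0.16, WRKY46 by 0.65 ± 0.13, WRKY53 by 0.61 ± 0.10 and WRKY54 by 0.57 ± 0.06. The value for WRKY46 was 0.42 without mutant mock replicate 1. WRKY70 was higher by 0.21 ± 0.06 (adjusted p = 0.029), a call lost when wild-type mock replicate 1 was left out (0.10, adjusted p = 0.24) and with 2 other libraries left out in turn. WRKY33 was higher by 0.55 ± 0.07, WRKY26 by 0.55 ± 0.06 and WRKY47 by 0.71 ± 0.09.

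The 2 members lower in the mutant in mock were the partners WRKY11 (-0.30 ± 0.06, adjusted p = 0.0028) and WRKY17 (-0.36 ± 0.09, adjusted p = 0.017), the latter lost when wild-type mock replicate 1 was left out (-0.32, adjusted p = 0.11) and with 2 other libraries left out in turn. WRKY75 was higher by 0.78 ± 0.18 (adjusted p = 0.0086), a call lost when mutant mock replicate 2 was left out (0.55, adjusted p = 0.097) or likewise wild-type mock replicate 2 (0.65, adjusted p = 0.050). WRKY45 (0.06 ± 0.12, adjusted p = 0.75) and WRKY6 (0.22 ± 0.11, adjusted p = 0.19) did not pass in mock. In all, 13 of the 22 calls in mock held when each library was left out in turn, and WRKY8, WRKY15, WRKY25, WRKY28, WRKY48 and WRKY65 were among the 9 that did not.

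After heat the differences between the genotypes went both ways. The mutant was lower for 15 members and higher for 7, against 17.6% lower and 11.0% higher over all genes, with medians of -0.09 over the members and -0.03 over all genes. The lower members numbered 12 without WRKY30, WRKY31 and WRKY71, and 10 and 9 when wild-type heat replicate 1 or 2 was left out. The lower members included WRKY6 and WRKY47 of group IIb and, without WRKY71, 5 of 8 in group IIc, and the higher ones 4 of 7 in group III. WRKY75 was lower by a log2 difference of -2.21 ± 0.18 (adjusted p = 1.8e-06), WRKY8 by -2.16 ± 0.11 (adjusted p = 3.5e-08), WRKY31 by -1.95 ± 0.13, WRKY45 by -1.90 ± 0.12, WRKY6 by -1.62 ± 0.11 and WRKY71 by -1.51 ± 0.14. In mean FPKM the wild type exceeded the mutant 7.96-fold for WRKY75, 6.03-fold for WRKY8, 4.49-fold for WRKY45 and 3.49-fold for WRKY6. The 7 higher members were WRKY40, WRKY46 (0.71 ± 0.13), WRKY33 (0.65 ± 0.07), WRKY70 (0.58 ± 0.06), WRKY54 (0.52 ± 0.06), WRKY22 (0.56 ± 0.15) and WRKY53 (0.42 ± 0.10). The call of WRKY22 was lost when wild-type heat replicate 2 was left out (0.34, adjusted p = 0.16) or likewise mutant heat replicate 1 (0.43, adjusted p = 0.13), and that of WRKY53 was lost when mutant heat replicate 1 was left out (0.34, adjusted p = 0.079) or likewise wild-type heat replicate 1 (0.35, adjusted p = 0.071).

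**Figure D4:**
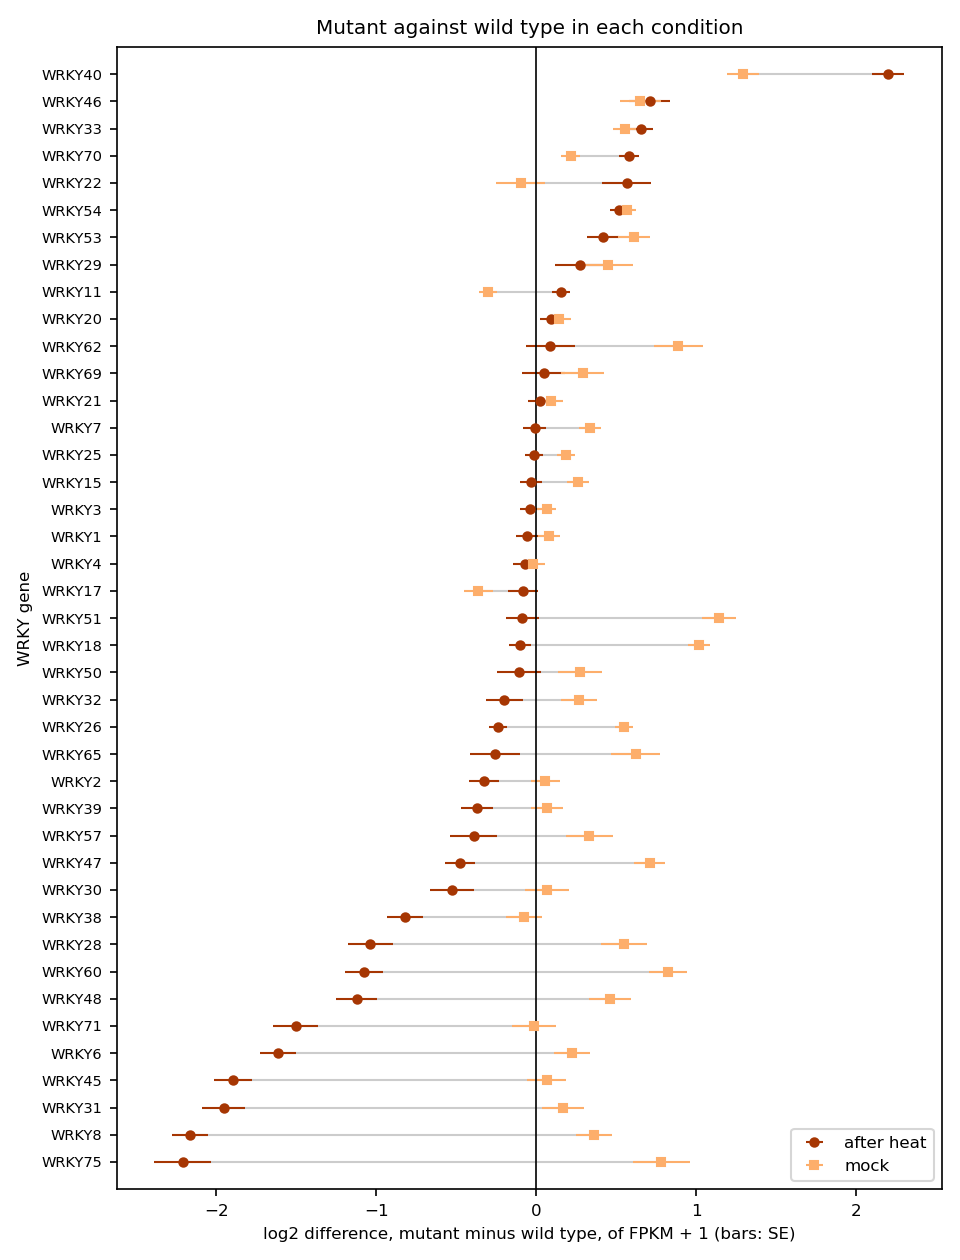
Log2 difference of mutant minus wild type ± SE from limma on the log2(FPKM + 1) scale for each measured WRKY gene, in mock and after heat. The differences in mock lie mostly at or above 0, and those after heat reach from -2.21 for WRKY75 to 2.20 for WRKY40.

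Both comparisons between genotypes, set side by side, sorted the called members into a few patterns. The share of all genes with the same pair of calls was not counted. The sizes of the patterns are therefore not a result about the family. WRKY33, WRKY40, WRKY46, WRKY53, WRKY54 and WRKY70 were higher in the mutant in mock and after heat. WRKY8, WRKY26, WRKY28, WRKY47, WRKY48, WRKY60 and WRKY75 were higher in the mutant in mock and lower after heat. In this second set WRKY26 went from 0.55 ± 0.06 to -0.24 ± 0.06, the latter lost when wild-type heat replicate 2 was left out (-0.19, adjusted p = 0.080) or likewise mutant heat replicate 1 (-0.22, adjusted p = 0.053), and WRKY60 from 0.82 ± 0.12 to -1.07 ± 0.12. Several of the mock calls in this set were weak. That of WRKY8 (0.36 ± 0.11, adjusted p = 0.041) was lost whichever of the 8 libraries was left out. That of WRKY28 (0.55 ± 0.14) was lost when wild-type mock replicate 1 was left out (0.40, adjusted p = 0.15) or likewise mutant mock replicate 1 (0.46, adjusted p = 0.10), and that of WRKY48 (0.46 ± 0.13) when wild-type mock replicate 1 was left out (0.41, adjusted p = 0.14) and with 2 other libraries left out in turn, besides the loss given above for WRKY75. For WRKY18 and WRKY51 the difference in mock was called and the one after heat was not (-0.10 ± 0.07, adjusted p = 0.30, and -0.09 ± 0.10, adjusted p = 0.57).

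The libraries of each gene were also ranked, with no test and in patterns chosen after the values were seen, on the same values as the comparisons above. Both wild-type heat libraries lay above the other 6 for 19 of the 41 members (46.3%), against 16.7% of all genes tested. Without the 3 genes measured in wild-type heat alone this was 16 of 38 (42.1%), against 15.6%. Of the 19, 14 were called lower in the mutant after heat, WRKY30, WRKY31 and WRKY71 among them. The ranking fixes the direction of that difference, so these calls are no separate support. The 19 held 8 of the 9 measured members of group IIc (all but WRKY50) and 3 of 3 in IIb (WRKY6, WRKY47 and WRKY31). The rest were WRKY18 and WRKY60 (group IIa), WRKY3, WRKY25 and WRKY26 (group I), WRKY30 and WRKY38 (group III), and WRKY39 (group IId). In these group counts WRKY71, WRKY31 and WRKY30 carry no weight, because they passed the filter through wild-type heat alone. Both mutant heat libraries lay above the other 6 for 8 members (19.5%), against 6.66% of all genes. Of the 8, 7 were called higher in the mutant after heat, a direction that the ranking likewise fixes. The 8 were WRKY46, WRKY53, WRKY54 and WRKY70 (group III), WRKY20 and WRKY33 (group I), WRKY40 (group IIa) and WRKY22 (group IIe). WRKY20 is in this set without any call, at 15.6 and 15.5 FPKM in mutant heat and at most 14.9 elsewhere.

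Most of the listed kinases and partner proteins of WRKY factors changed little after heat in the wild type. Of 12 measured genes (SIB2 was listed at 0 in all libraries) 1 rose in the wild type, JAV1, a VQ-motif protein of jasmonate defence (1.13 ± 0.11, adjusted p = 6.1e-06), and 0 fell, against 21.5% and 16.9% of all genes. In the mutant MKK9 and SIB1 rose (16.7% of the 12) and MKK5 and MEKK1 fell (16.7%), against 6.28% higher and 13.9% lower over all genes. MPK3, a kinase that phosphorylates WRKY33, was at 100.3 and 102 FPKM in wild-type mock, 105 and 104 in wild-type heat, 128 and 121 in mutant mock and 127 and 128 in mutant heat. Both mutant groups lay above both wild-type groups. MPK3 was not called after heat in the wild type (0.04 ± 0.04, adjusted p = 0.44) and was higher in the mutant by 0.30 ± 0.04 in mock (adjusted p = 4.1e-04) and by 0.29 ± 0.04 after heat (adjusted p = 2.6e-04). SIB1, a VQ-motif partner of WRKY33, was at 44.3 and 52.8 FPKM in wild-type mock, 47.4 and 45.9 in wild-type heat, 55.5 and 49.8 in mutant mock and 68.7 and 59.2 in mutant heat. The highest 2 values were those of mutant heat, where SIB1 exceeded the wild type by 0.44 ± 0.09 (adjusted p = 0.0024). Over the 12 genes, 3 were higher in the mutant in mock and 0 lower, and 4 higher and 2 lower after heat, against 13.0% and 7.69% of all genes in mock and 11.0% and 17.6% after heat.

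Of genes described as targets of WRKY factors (14 listed, ABI5 not measured), 10 of 13 rose after heat in the wild type and 1 fell, where 21.5% of all genes rose and 16.9% fell. In the mutant 4 rose and 1 fell, where 6.28% of all genes rose and 13.9% fell. Of the 10, PHT1;1 passed the filter on low values through wild-type heat alone and was bound to differ, and without it 9 of 12 rose. PAD3, the last enzyme of camalexin synthesis and a target of WRKY33, was at 4.79 and 5.76 FPKM in wild-type mock, 42.9 and 44.0 in wild-type heat, 11.1 and 11.0 in mutant mock and 13.0 and 15.3 in mutant heat. The wild-type heat libraries stood far above the rest. WRKY33 was highest in mutant heat, and a relation between the levels of these genes was not tested. PAD3 rose by 2.83 ± 0.09 in the wild type (adjusted p = 3.8e-10) and by 0.33 ± 0.09 in the mutant (adjusted p = 0.028). ICS1 (EDS16 in the annotation), which is activated by WRKY28 and repressed by WRKY54 and WRKY70, was at 11.0 and 11.6 FPKM in wild-type mock, 17.6 and 18.7 in wild-type heat, 16.7 and 16.5 in mutant mock and 19.0 and 17.6 in mutant heat. Only wild-type mock was apart, at the lowest level. ICS1 rose by 0.63 ± 0.07 in the wild type (adjusted p = 1.8e-05) and was 0.13 ± 0.07 in the mutant (adjusted p = 0.23).

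FRK1, a target of WRKY6, was at 0.710 and 1.20 FPKM in wild-type mock, 6.82 and 5.95 in wild-type heat, 1.58 and 2.11 in mutant mock and 1.80 and 2.00 in mutant heat. FRK1 was highest in wild-type heat, with an interaction of -1.89 ± 0.21 (adjusted p = 4.5e-05). A relation to the level of WRKY6 was not tested. PHO1, the phosphate exporter that WRKY6 represses, was -0.03 ± 0.11 in the wild type (adjusted p = 0.86) and -0.41 ± 0.11 in the mutant (adjusted p = 0.022). PHT1;1, the transporter gene activated by WRKY45, was listed at 0 in both wild-type mock libraries and reached 2.93 and 1.41 FPKM in wild-type heat, and at most 0.0455 in the mutant. ACS6, an ethylene synthesis gene bound by WRKY33, was at 11.3 and 12.5 FPKM in wild-type mock, 7.93 and 7.80 in wild-type heat, 11.3 and 11.4 in mutant mock and 25.6 and 26.5 in mutant heat. It was the 1 listed target that fell in the wild type (-0.54 ± 0.07, adjusted p = 1.1e-04), and it rose in the mutant (1.13 ± 0.07, adjusted p = 4.7e-06). Without PHT1;1 the interaction was lower for 8 of the 12 genes and higher for ACS6, against 21.6% and 10.3% of all genes. In mock 8 of the 12 were higher in the mutant and 0 lower, against 13.0% and 7.69%. After heat 2 were higher and 7 lower, against 11.0% and 17.6%.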

How the data were processed

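Libraries were directional and made from DNase-treated total RNA, per the labels' protocols. The deposited values are the authors' FPKM of 34354 genes in 8 libraries. TopHat, TopHat2, edgeR and the genome build TAIR10 are named in the submitters' processing notes, without roles. How reads were counted, and whether strand was used, is not given in the sources used here. FPKM are relative to the library total, so abundant genes that move shift the others.

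Symbols, gene lengths, overlaps and upstream sequences came from the RefSeq annotation TAIR10.1, in which 32548 of the row identifiers matched. Whole reads were recovered from the steps of the FPKM values. Of 23223 matched rows above 0, 13169 gave 8 whole values at the annotated length of all exons of the gene. The tolerance was 0.1, and wider for rows with the most reads. For the other rows a transcript length was tried, and then lengths were searched until the values were whole. Whole values in those rows are therefore no check on the recovered reads. The pairs of libraries in each group differed by more than sampling noise. Mean chi-square per gene was 5.36 in wild-type mock and 4.955 in mutant mock, against 2.22 in wild-type heat and 2.14 in mutant heat.

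Genes with at least 1 FPKM in 2 libraries were tested as log2(FPKM + 1) with limma 3.58.1 in R 4.3.3. The model of group means over 8 libraries used an intensity trend, and there were 5 two-sided comparisons. A design text names 2 biological replicates. With 2 libraries per group a single gene alone allows no useful exact test, so p-values rest on spread pooled over genes and groups. Alternatives were pseudocounts of 0.1 and 0.5, other filters, 2 other scalings, no trend, a block for the replicate number, a fit of the compared groups alone, limma-voom on recovered reads, each library left out, and, chosen after seeing the data, counts without genes that reached 1 FPKM in 1 group only. The members, gene lists, marker lists and the rule for members given in full were chosen with earlier results of these data known. That rule takes members with the smallest p for the interaction, those with the largest called changes, and 13 members with known roles in senescence, defence or heat. Figures were drawn with matplotlib 3.10.9.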

Additional observations from a re-analysis of the deposited data

Results flagged for a closer look

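For 27 of the 41 measured WRKY genes the heat change differed between the genotypes by a direct test, the interaction in limma at an adjusted p below 0.05 (23 negative and 4 positive, against 21.6% and 10.3% of all genes tested). After median-of-ratios and quantile scaling 21 and 20 were called. WRKY30, WRKY31 and WRKY71 among them passed the filter through wild-type heat alone. The values are the heat change in the mutant minus that in the wild type, on the log2(FPKM + 1) scale. The difference was negative in groups IIb and IIc for WRKY75 (-2.99), WRKY8 (-2.52), WRKY31 (-2.12), WRKY45 (-1.96), WRKY6 (-1.84), WRKY28 (-1.59), WRKY48 (-1.58), WRKY71 (-1.49), WRKY51 (-1.23), WRKY47 (-1.19) and WRKY57 (-0.72). In group IIa it was negative for WRKY60 (-1.90) and WRKY18 (-1.12) and positive for WRKY40 (0.91). In group III it was negative for WRKY62 (-0.80), WRKY38 (-0.75) and WRKY30 (-0.59) and positive for WRKY70 (0.36). Group I had negative differences for WRKY26 (-0.79), WRKY32 (-0.46) and WRKY2 (-0.38). In groups IId and IIe the difference was negative for WRKY65 (-0.88), WRKY39 (-0.43), WRKY7 (-0.35) and WRKY15 (-0.29) and positive for WRKY22 (0.66) and WRKY11 (0.46). Calls for 9 of the 27 (WRKY2, WRKY7, WRKY15, WRKY22, WRKY30, WRKY32, WRKY39, WRKY57 and WRKY62) were lost when 1 library was left out, with adjusted p up to 0.18.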

How the results depend on the processing

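Over all alternatives, 3366 of 3589 values for the 41 members kept their direction and their side of the threshold, 195 kept the direction but lost the call, 28 gained one and 0 reversed. Single calls of kinases, partners, targets and WRKY genes outside the list were not followed under the alternatives, so how far they hold is not known. The number of members called stayed within 1.5 times of the value reported under every alternative except for heat in the mutant, where it was 5 without mutant heat replicate 1. Leaving out each library in turn gave 22 to 29 called members for heat in the wild type (31 reported), 5 to 9 for heat in the mutant (9), 15 to 22 for the genotypes in mock (22), 15 to 23 after heat (22) and 18 to 24 for the interaction (27). By direction, the count of negative interactions moved by over 1.5 times with quantile scaling (23 reported, 15 then). That of positive interactions did so without an intensity trend (4 reported, 2 then). With 1 library left out it also held for members that rose in the mutant, negative interactions, and members below the wild type after heat. Counts reported at 1 or 2 also changed under some alternatives. Calls that held without each library numbered 23, 5, 13, 16 and 18 in the same order. Without a filter on low values 15 members were called in mock and 21 for the interaction. The labels do not say that a replicate number marks a shared batch, and the replicate differences of 2 groups correlated by -0.03 to 0.19 across genes, so the numbers were not taken to pair the libraries. With the replicate block 32, 10, 23, 22 and 27 members were called. Counting only genes that reached 1 FPKM in 2 or more groups, an alternative chosen after seeing the data, left 28, 9, 22, 19 and 24 called members of 38. Calls gained under an alternative and not given above were those of WRKY57 after heat, WRKY57 and WRKY32 in mock, WRKY11 after heat and the interaction of WRKY17. WRKY31, WRKY71 and WRKY30 had no value without either wild-type heat library or where at least 1 FPKM was required in all libraries. On recovered reads, limma-voom gave larger changes for members at low FPKM, and it called 30, 9, 22, 23 and 26 members. Depth limits WRKY31, WRKY71, WRKY75 (5 to 136 reads per library), WRKY30 (14 to 43), WRKY62 (18 to 73) and the members that were not measured.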

Other observations

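The table holds 23 further genes with a WRKY symbol or known WRKY name that are not in the list followed here, and 6 of them were measured. In the wild type 1 of the 6 rose after heat, WRKY58 (0.49 ± 0.15, adjusted p = 0.023), and 0 fell, against 21.5% and 16.9% of all genes. In the mutant 1 rose and 2 fell, against 6.28% and 13.9%. The interaction was negative for WRKY19 (-0.60 ± 0.16), WRKY52 (-0.52 ± 0.13) and WRKY16 (-0.41 ± 0.14) and positive for 0, against 21.6% and 10.3%. Between the genotypes 0 were called in mock or after heat. WRKY16 (TTR1 in the annotation) and WRKY52 (RRS1), immune receptors that carry a WRKY domain, were at 7.15 to 10.096 and 6.43 to 8.83 FPKM over the libraries. WRKY52 did not pass for heat in the wild type (0.22 ± 0.09, adjusted p = 0.083) and fell in the mutant (-0.30 ± 0.09, adjusted p = 0.041). WRKY19, which also carries receptor and kinase domains, fell in the mutant (-0.36 ± 0.12, adjusted p = 0.0496), with 5.22 and 6.44 FPKM in wild-type mock, 7.29 and 6.81 in wild-type heat, 6.78 and 8.33 in mutant mock and 5.64 and 5.68 in mutant heat. WRKY27, known for a part in bacterial wilt, was the 1 of the 6 that rose in the mutant (0.48 ± 0.14, adjusted p = 0.034), at 0.963 and 0.952 FPKM in mutant mock and 1.94 and 1.54 in mutant heat. Among those not measured, WRKY61 was listed at 0 in wild-type mock and mutant mock and at 1.04 and 0.783 FPKM in wild-type heat.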
